A study of Mus with 12 samples.

Results

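The comparison set the injured left kidney of Aif1-knockout mice against the uninjured right kidney of the same animals, in cells pulled out of digested kidneys with an antibody to F4/80, a surface protein of mouse macrophages. It rests on 6 of the series' 12 libraries, those whose labels give the genotype KO: the libraries tagged IRI (ischemia-reperfusion injury) and No IRI from mice 17, 23 and 32, paired through the mouse. All 3 mice were Aif-1-/-; the labels name no strain, age or sex and do not say whether the deletion reaches all cells. Ischemia of the left kidney had lasted 30 min, and harvest followed at day 4, so that the contralateral kidney came from an animal that had also undergone the injury and is not a kidney of an untouched mouse. The remaining 6 libraries came from Aif-1+/+ (WT) mice 12, 26 and 36 under the same protocol. RNA of 734 immune-related genes, 20 housekeeping genes and 14 control probes was counted with NanoString probes, which are fluorescent barcodes counted on single RNA molecules without amplification.

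Macrophages of the kidney include resident cells and cells that arise from blood monocytes drawn in after injury. Monocyte entry depends on C-C chemokines that act on receptors such as Ccr2, whereas C-X-C chemokines of the Cxcl1 and Cxcl2 type draw neutrophils. In the days after ischemia macrophages clear dead tubule cells through scavenger, complement and Fc receptors, and many take up a repair-associated state marked by genes such as Arg1 and Mrc1. Aif1, also called Iba1, encodes a calcium-binding protein that bundles actin in these cells.

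Total counts of the KO libraries ran from 255274 to 882013. The amount of RNA, read as the geometric mean count of the housekeeping genes, was 701, 318 and 118 in the injured kidneys of mice 17, 23 and 32 and 164, 169 and 157 in their contralateral kidneys. The injured kidney thus gave more RNA in mouse 17 (4.28 times) and mouse 23 (1.89 times) but less in mouse 32 (0.748 times), and over the 3 mice the log2 ratio was 0.87 ± 1.26 (SD). An exact two-sided permutation test that flips signs gave p = 0.5, and 3 pairs cannot go below 0.25. The positive controls, which are spiked in at fixed amounts, differed by at most 1.16-fold. Normalised counts, given below unless raw counts are named, divide each count by the library's effective size from TMM (trimmed mean of M-values) scaling. Nothing in the labels says whether the mice were handled on different days, and p-values measure the spread between these 3 mice.

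Aif1 did not check the genotype. Its raw count was 81, 93 and 64 in the injured and 71, 83 and 54 in the contralateral kidneys of KO mice 17, 23 and 32, and the WT libraries ran from 57 to 95. The detection threshold, set 2 SD above the mean of the negative control probes, was 52.0, and the highest single negative control in the KO libraries read 55. The region of the gene that the probe targets is not known here. Its fitted log2 difference between injured and contralateral kidneys was -0.53 ± 0.46 (SE, adjusted p = 0.57), with no call, and it changed sign under scaling by the positive controls and without mouse 17.

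The cells carried macrophage RNA in every library, and kidney tubule RNA as well. All 5 defining macrophage markers lay above the threshold in all 6 KO libraries. Adgre1, the gene of F4/80, counted 747, 559 and 467 in the injured and 359, 297 and 319 in the contralateral kidneys of mice 17, 23 and 32, without overlap of the groups. Its log2 difference was 0.84 ± 0.40 and did not pass (adjusted p = 0.29). Summed over the 23 macrophage markers on the panel, the level was 17034, 12886 and 9990 in injured and 6408, 4645 and 6125 in contralateral kidneys, so 3 of 3 mice had more on the injured side. Klk1, which encodes tissue kallikrein of the distal tubule, counted 19100, 6700 and 2740 in injured and 7290, 4690 and 7000 in contralateral kidneys. Its highest value stood in the injured kidney of mouse 17 and its lowest in that of mouse 32, as for the housekeeping counts, and the groups overlapped (0.21 ± 0.84, adjusted p = 0.91). In bulk RNA of this kind, fewer cells of a type and less RNA per cell cannot be told apart.

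**Figure D1:**
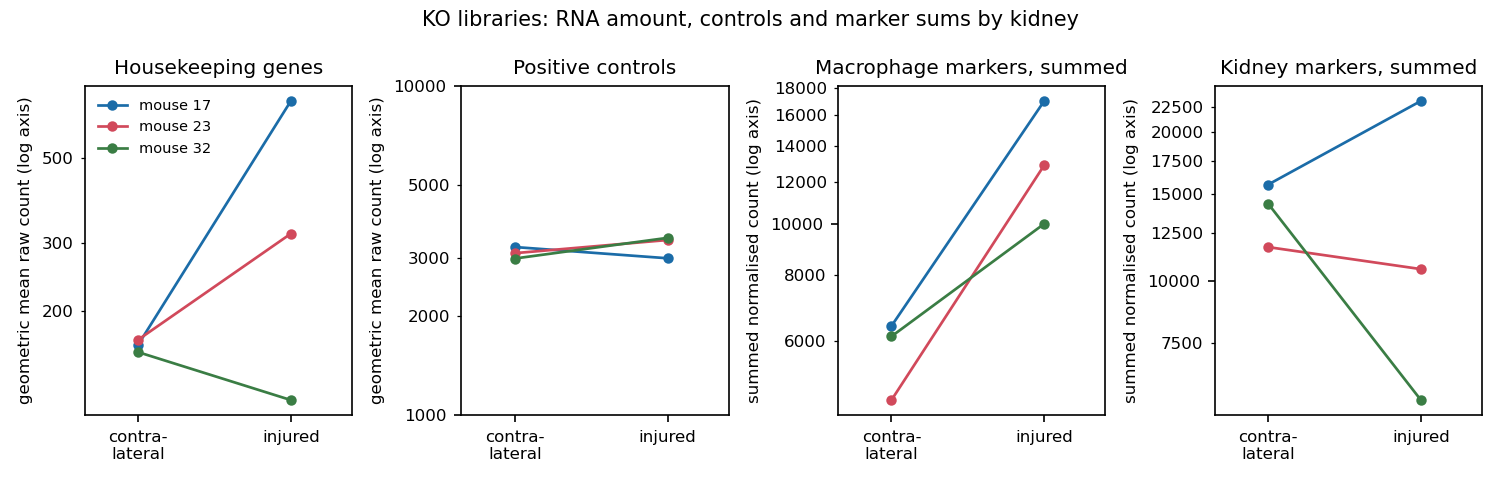
Housekeeping and positive control probes (geometric mean raw count per library) and summed macrophage and kidney markers (normalised counts), each on a log axis, with a line from the contralateral to the injured kidney of each KO mouse. Housekeeping counts diverge in the injured kidneys (701, 318 and 118), positive controls stay within 1.16-fold, the macrophage sum rises along all 3 lines, and the kidney sum is higher in mouse 17 alone.

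At day 4 individual genes of several roles were higher in the injured kidneys of the KO mice, among them 7 chemokines (Ccl2, Ccl5, Ccl7, Ccl9, Cxcl1, Cxcl2 and Pf4), the lipid carrier Apoe, the matrix gene Fn1 and the phagocyte gene Cd68. Apoe, Cxcl2, Ccl9 and Ccl2 led the genes measured above background in the contralateral kidneys, with fitted increases from 2.42 to 1.96 on the log2 scale. Il1rn and Cd84 had larger fitted values (2.52 and 2.48), but all their contralateral counts lay below the detection threshold, so that they entered the test through the injured libraries alone and had to differ; they are counted among the calls and given as values. With mouse as a block, edgeR's quasi-likelihood test called 26 of 647 tested genes (4.02%) at a Benjamini-Hochberg adjusted p under 0.05, and 26 of these rose while 0 fell. At an unadjusted p under 0.05 there were 108 of the 647 genes, 62 higher and 46 lower. Counts given below for gene lists stand against these shares of all tested genes. DESeq2 called 33 genes, 32 higher and 1 lower, the lower one being Egf. Each of the 26 had a higher injured value in 3 of 3 mice, against 17.2% of all tested genes, and in each all injured values lay above all contralateral ones, as was so for 13.3% of all tested genes.

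The number of calls depended on which mice were in the fit. Without mouse 17, 3 genes stayed called (Il1rn, Cd84 and Ccl7), and without mouse 23 there were 0, with 14 genes at an unadjusted p under 0.05 by edgeR. Without mouse 32 there were 222, 102 higher and 120 lower, and all 26 were among them. In mouse 17 the raw counts of these 120 were 0.706 to 2.06 times as high in the injured kidney. All 120 lay under its housekeeping ratio of 4.28, and the median over all tested genes was 3.37. A lower call there need not mean fewer raw counts. The 26 kept a positive fold change in each of these fits. Since each was chosen with these mice and was higher in 3 of 3, that sign was set beforehand and is no support. Their median was 1.31 without mouse 17, 1.45 without mouse 23 and 1.87 without mouse 32, against 1.55 with all 3 mice. Each of these fits holds 2 pairs, yet the count ran from 0 to 222. A lost call by itself gives no size of response, and the cause of these shifts was not tested. Across 7 other settings of scaling, filter, background, test and libraries, 15 of the 26 were called in every one: Il1rn, Cd84, Apoe, Cxcl2, Ccl9, Ccl2, Fn1, Ccl7, Cd68, Cxcl1, Fcgr3, Stab1, Itgam, Ptgs2 and Mrc1. For Il1rn and Cd84, which had to differ, calls kept here or without mouse 17 are no support. When the threshold had to be reached in all 6 libraries, Il1rn, Cd84 and Ccl7 were not tested. Scaling by the positive controls leaves differences in RNA amount in the data and moved the median of all tested genes from -0.05 to 0.60. It called 2 genes, of which 1 was among the 26, namely Il1rn, which had to differ.

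**Figure D2:**
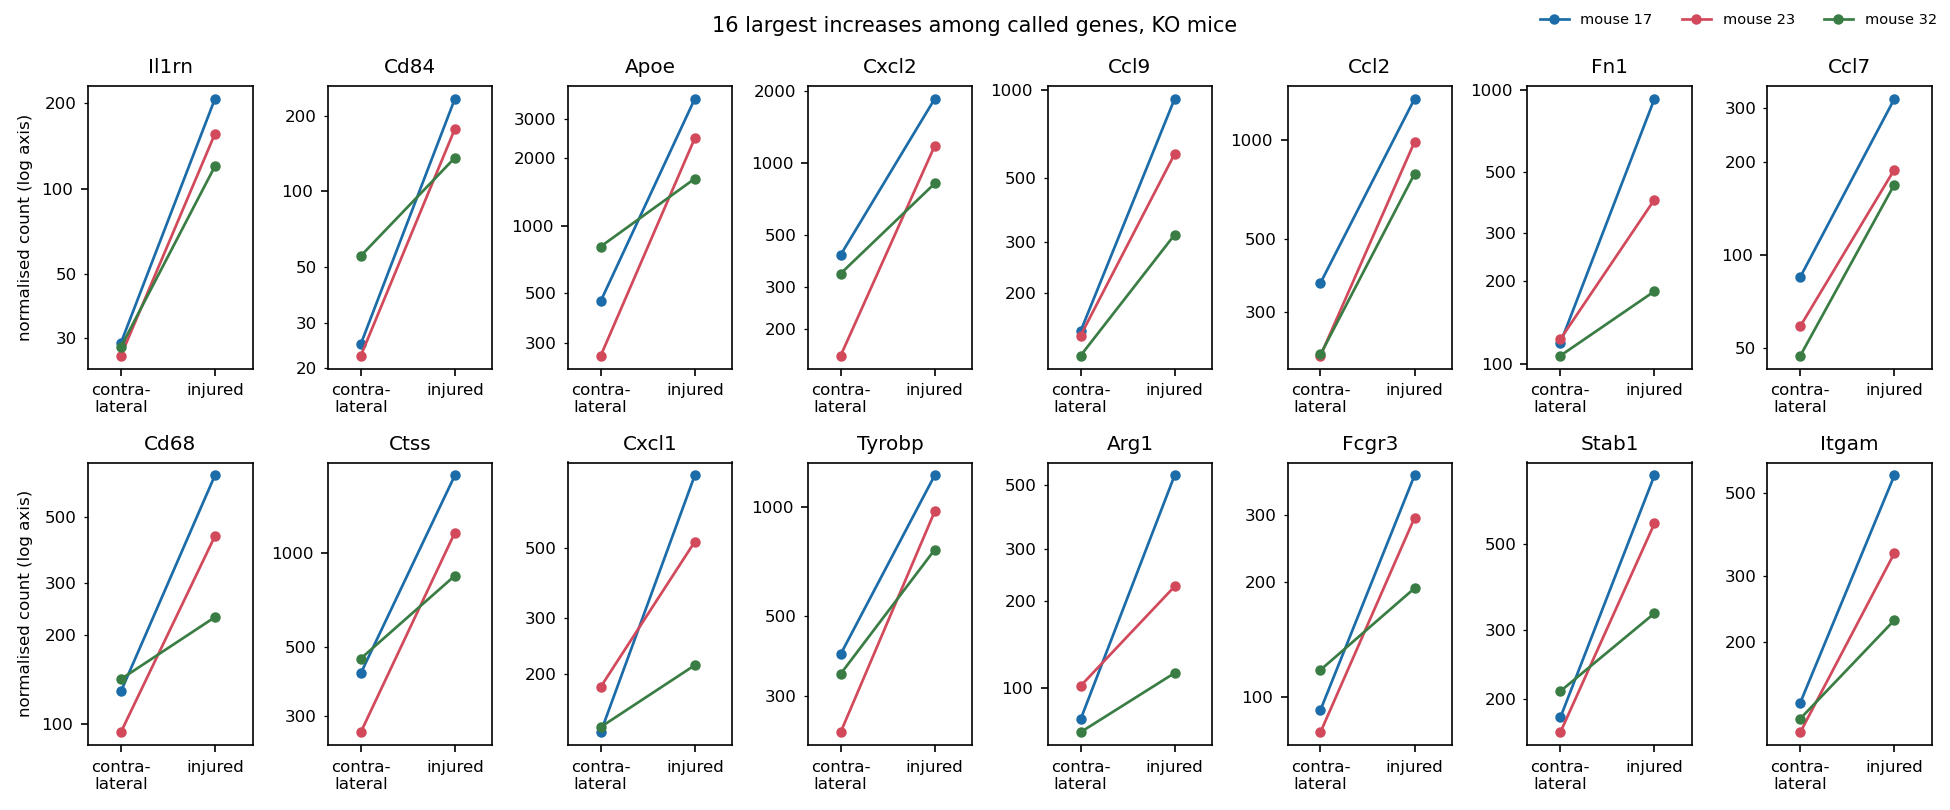
Normalised counts (log axis) of the 16 called genes with the largest increase, with 1 line per KO mouse from the contralateral to the injured kidney. Every line rises, and in most panels the line of mouse 32 is the flattest.

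Among interleukin-1 genes, counts of the antagonist Il1rn and of the agonist Il1a were both higher in the injured kidney of each mouse. Il1rn, which encodes the interleukin-1 receptor antagonist, counted 207, 156 and 120 in the injured kidneys of mice 17, 23 and 32 and 28.7, 25.9 and 27.8 in their contralateral kidneys. The contralateral raw counts of 20 to 22 lay under the mean negative control of every KO library (28.8 to 36.2), so these values are background and give no exact fold. Il1a, named after its values were seen, counted 343, 111 and 41 raw in injured and 16, 8 and 9 in contralateral kidneys. It reached the threshold in 2 libraries alone and did not enter the test; in a fit without the filter its difference was 2.78 ± 0.45, beside 2.57 for Il1rn in the same fit. Il1b, a second agonist also named after its values were seen, counted 492, 411 and 431 in injured and 427, 262 and 387 in contralateral kidneys. It was higher on the injured side in 3 of 3 mice, the groups overlapped, and its difference of 0.34 ± 0.38 did not pass (adjusted p = 0.67). Of 9 tested members of the interleukin-1 family and its receptors, 1 rose, with a list median of -0.52 against -0.05 over all tested genes. Such a median need not mean fewer raw counts, since those of mouse 17 were at the median 3.37 times as high in the injured kidney.

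Of 19 tested C-C chemokine genes 4 rose, and their median was -0.03. Ccl2, the main ligand of Ccr2 on inflammatory monocytes, counted 1340, 990 and 791 in injured and 367, 220 and 222 in contralateral kidneys. Its increase was alike in the mice, at log2 ratios of 1.87, 2.17 and 1.83, and the fit gave 1.96 ± 0.46 (adjusted p = 0.0075). Ccl7, a further Ccr2 ligand, counted 320, 189 and 169 in injured and 84.9, 58.8 and 47.2 in contralateral kidneys. Its ratios of 1.91, 1.69 and 1.84 were again close to each other (1.81 ± 0.32, adjusted p = 0.00032). Ccl9, a macrophage-derived ligand of Ccr1 in mice, counted 933, 603 and 318 against 148, 143 and 122, so that the injured kidneys differed from each other far more than the contralateral ones did (2.05 ± 0.40, adjusted p = 0.0015). Ccl5, a chemokine that draws T cells and monocytes, counted 221, 148 and 125 against 82.3, 43.5 and 68.0 (1.36 ± 0.35, adjusted p = 0.017). The contralateral raw counts were 65, 50 and 34 for Ccl7 and 63, 37 and 49 for Ccl5, so that 2 of 3 lay below the threshold for each. Background subtraction gave 3.01 for Ccl7 and 2.41 for Ccl5, where Ccl5 lost its call (adjusted p = 0.077), as it did with housekeeping scaling (adjusted p = 0.23).

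Among the 13 tested chemokines of the C-X-C and remaining classes, 3 rose, with a median of 0.41. Cxcl2, a neutrophil attractant, counted 1860, 1180 and 820 in injured and 411, 155 and 343 in contralateral kidneys (2.12 ± 0.51, adjusted p = 0.010). Mouse 23 had the lowest contralateral value and the largest ratio. Cxcl1, which shares the receptor Cxcr2 with Cxcl2, counted 845, 522 and 213 against 131, 182 and 136. Here mouse 17 led with a log2 ratio of 2.69 and mouse 32 reached 0.64 (1.63 ± 0.40, adjusted p = 0.011). Pf4, a chemokine of platelets and of some macrophages, counted 281, 181 and 113 against 79.6, 91.7 and 73.6 (1.15 ± 0.33, adjusted p = 0.039), and its call was lost in 4 of the 7 other settings. Cxcl10, an interferon-induced chemokine, stood at 1.09 ± 0.44 and was not called (adjusted p = 0.21), though its injured values of 625 to 986 all lay above the contralateral ones of 281 to 524 and DESeq2 called it. Ptgs2, the inducible prostaglandin synthase, was the single called gene among 16 other pro-inflammatory genes, with 297, 204 and 230 against 99.2, 68.2 and 95.8 (1.48 ± 0.30, adjusted p = 0.0019). The Ptgs2 ratios of the 3 mice lay within 1.26 to 1.58.

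None of the 16 tested chemokine receptor genes was called, against 4.02% of all tested genes. Their median was -0.61 (edgeR, with 5 at an unadjusted p under 0.05, and 0 called by DESeq2), and 5 were higher and 2 lower in 3 of 3 mice. In mouse 17, raw counts over all tested genes were at the median 3.37 times as high in the injured kidney. A negative fitted value therefore need not mean fewer raw counts. Cx3cr1, the fractalkine receptor of resident macrophages and patrolling monocytes, stood at 1.03 ± 0.34 (adjusted p = 0.10), with 518, 361 and 345 in injured and 257, 159 and 186 in contralateral kidneys. Cxcr4, the receptor for Cxcl12, stood at 0.68 ± 0.29 (adjusted p = 0.25). Ccr3, an eosinophil receptor, stood at -0.98 ± 0.42 (adjusted p = 0.25) on raw counts of 51 to 116, close to the threshold.

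Of 19 tested Fc receptor, scavenger receptor and phagocytosis genes 7 rose, with a median of 0.69. Cd68, a lysosomal glycoprotein of phagocytes, counted 693, 432 and 230 in injured and 129, 94.0 and 142 in contralateral kidneys. Its log2 ratios of 2.42 and 2.20 in mice 17 and 23 stood well above the 0.70 of mouse 32 (1.79 ± 0.38, adjusted p = 0.0026). Fcgr3, an activating low-affinity Fc receptor, counted 381, 295 and 193 against 92.7, 81.1 and 118 (1.55 ± 0.32, adjusted p = 0.0024). Fcgr1, the high-affinity Fc receptor, gave 1.05 ± 0.31 (adjusted p = 0.042) on 354, 286 and 265 against 134, 149 and 150. Tyrobp, the adaptor that carries the signal of Trem2 and related receptors, counted 1220, 970 and 761 against 392, 239 and 346 (1.60 ± 0.46, adjusted p = 0.039). Both Fcgr1 and Tyrobp lost their call with DESeq2 size factors and without the filter. Fcgr1 also lost it in the DESeq2 test and with housekeeping scaling, where Tyrobp kept it.

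Complement genes had a median of 1.23, and 2 of 8 tested members rose. Itgam, the alpha chain of complement receptor 3 and an adhesion molecule of myeloid cells, counted 558, 346 and 229 in injured and 138, 115 and 125 in contralateral kidneys (1.5 ± 0.34, adjusted p = 0.0047). C5ar1, the receptor for the anaphylatoxin C5a, counted 499, 374 and 291 against 174, 132 and 179 (1.25 ± 0.34, adjusted p = 0.025). C3ar1, the receptor for C3a, stood at 1.09 ± 0.39 without a call (adjusted p = 0.11). C1qa, a subunit of C1q made by tissue macrophages, counted 1750, 1440 and 1100 against 683, 475 and 682 and did not pass either (1.22 ± 0.52, adjusted p = 0.25), while DESeq2 called it.

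Markers of alternative activation were divided. Of 17 tested members 5 rose (Arg1, Il1rn, Mrc1, Stab1 and Trem2), and the median was 0.03. Arg1, the arginase of repair-type macrophages, counted 539, 224 and 113 in injured and 78.3, 102 and 70.8 in contralateral kidneys. Mouse 17 alone reached a log2 ratio of 2.78, against 1.13 and 0.68 in the others (1.55 ± 0.35, adjusted p = 0.0047). The call was lost without the mouse block, with housekeeping scaling and with background subtraction, which gave 2.04. Arg1 did not reach the threshold in all 6 libraries. Mrc1, the mannose receptor, counted 561, 358 and 262 against 146, 134 and 135 (1.45 ± 0.34, adjusted p = 0.0075). Its contralateral values lay within a narrow band and its injured values did not. Stab1, a scavenger receptor for modified lipoproteins and matrix fragments, counted 747, 563 and 332 against 180, 165 and 210 (1.51 ± 0.39, adjusted p = 0.017). Il4ra, the receptor chain for interleukin-4 and interleukin-13, stood at 0.74 ± 0.30 without a call (adjusted p = 0.21).

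Lipid handling genes counted 2 of 11 that rose, Apoe and Trem2, with a list median of -0.10. Apoe, the lipid carrier, had a normalised count of 3670, 2450 and 1620 in injured and 462, 264 and 808 in contralateral kidneys. Mice 17 and 23 rose by log2 ratios of 2.99 and 3.21, whereas mouse 32 began from the highest contralateral value and rose by 1.0 (2.42 ± 0.64, adjusted p = 0.021). Trem2, a lipid-sensing receptor of macrophages, counted 210, 200 and 134 against 66.6, 91.7 and 61.1 (1.31 ± 0.33, adjusted p = 0.016). Its call was lost with housekeeping scaling, and 2 of its 3 contralateral raw counts lay below the threshold. Of 6 lysosomal genes 2 rose, Cd68 and Ctss, with a median of 1.33. Ctss, the cathepsin that trims the MHC class II invariant chain, counted 1770, 1160 and 844 against 411, 266 and 458 (1.71 ± 0.51, adjusted p = 0.042). Man2b1, the lysosomal alpha-mannosidase, stood at 0.96 ± 0.32 (adjusted p = 0.10).

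Matrix and growth factor genes counted 2 of 23 that rose, with a median of 0.08. Fn1, which encodes fibronectin, counted 929, 398 and 184 in injured and 119, 123 and 107 in contralateral kidneys. Contralateral values were alike, and the injured ones lay in the order of the housekeeping counts (1.83 ± 0.40, adjusted p = 0.0041). Tgfb1, a profibrotic growth factor, counted 454, 311 and 227 against 150, 112 and 186 (1.13 ± 0.33, adjusted p = 0.042) and was lost in 6 of the 7 other settings. Mmp13, a collagenase, stood at -0.87 ± 0.36 (adjusted p = 0.21), lower in 3 of 3 mice, and was called lower in the fit of all 12 libraries.

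Of 17 integrin and adhesion genes, 2 rose, with a median of 0.18. Besides Itgam the second was Cd84, a SLAM family receptor of leukocytes, with 233, 177 and 136 in injured and 24.8, 22.3 and 55.5 in contralateral kidneys. All 3 contralateral raw counts of Cd84 (19, 19 and 40) lay below the threshold, so that no exact fold can be given. Sirpa, the macrophage receptor for Cd47, stood at 1.11 ± 0.38 (adjusted p = 0.11) and was called by DESeq2. Among the called genes, 2 belonged to no list and complete the set. Mpeg1, a pore-forming protein of macrophages, gave 1.36 ± 0.38 (adjusted p = 0.033) and lost its call with DESeq2 size factors and without the filter. Ptprc, the pan-leukocyte marker CD45, gave 1.05 ± 0.31 (adjusted p = 0.042) on 333, 270 and 222 against 148, 97.5 and 158. Of the 7 other settings, Ptprc kept its call in the fit of all 12 libraries alone.

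**Figure D3:**
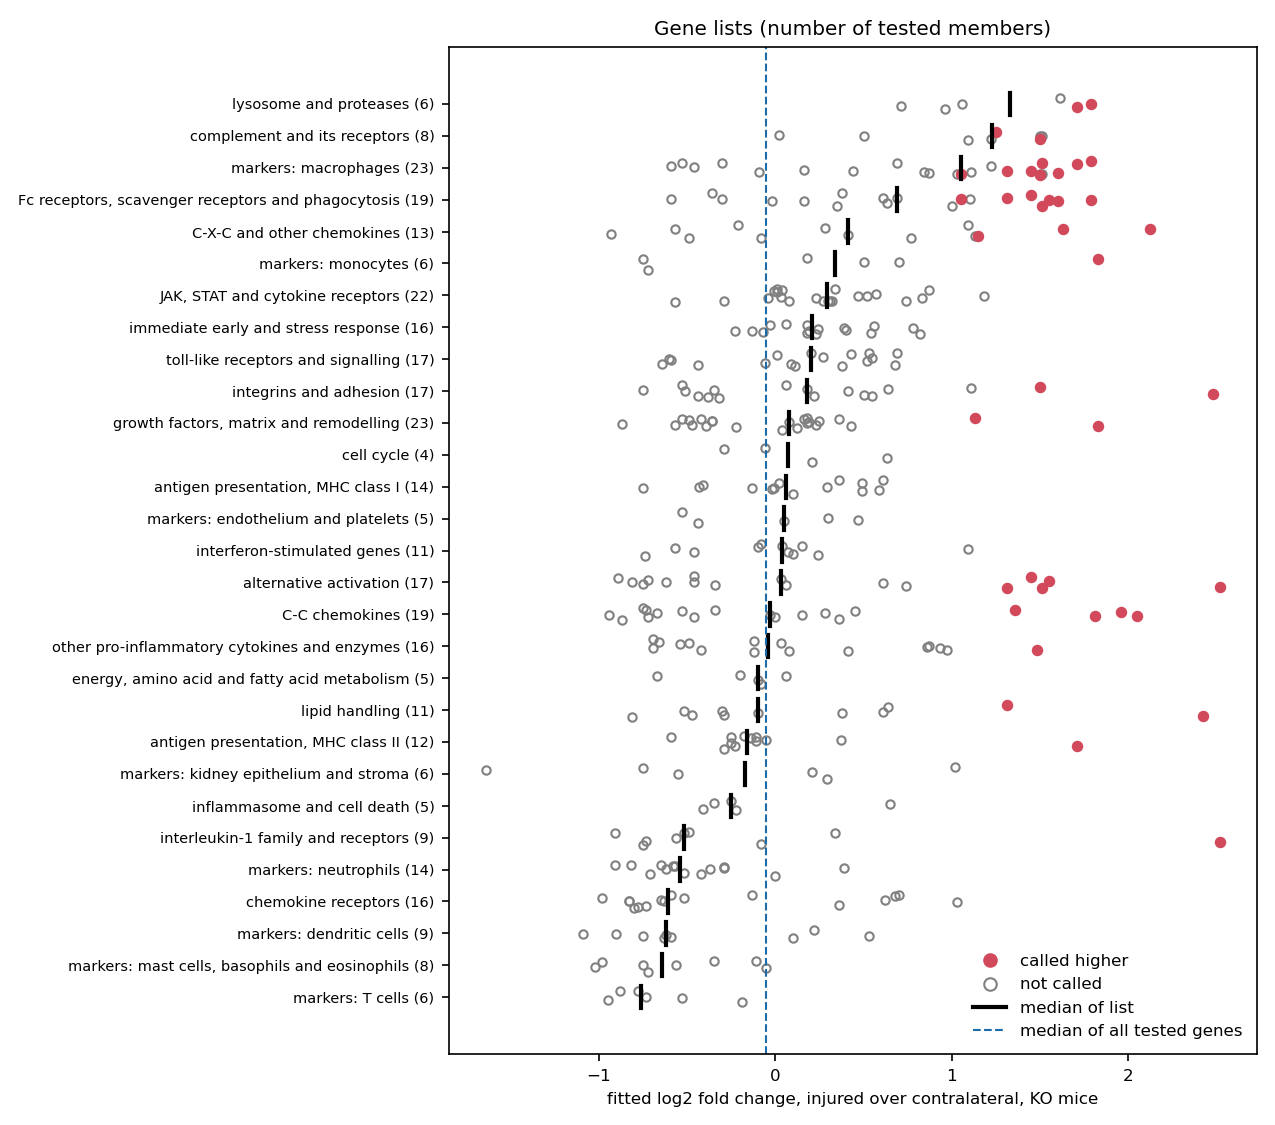
Fitted log2 fold changes of the tested members of each gene list with at least 4 of them, with the list median as a bar and the median of all tested genes (-0.05) as a dashed line; the number of tested members stands in brackets. Lysosomal, complement, macrophage and phagocytosis lists lie farthest to the right, and T cell, mast cell and dendritic cell markers farthest to the left, with no member called there.

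Antigen presentation and signalling lists held few or no calls, beside 26 of 647 tested genes (4.02%). At that share lists of this size would hold few calls, so these counts are a description. Of 12 MHC class II genes Ctss alone rose, and the median was -0.16. Cd74, the invariant chain named after its values were seen, counted 5100, 5240 and 6360 in injured and 6660, 3650 and 7780 in contralateral kidneys. Its difference of -0.05 ± 0.73 was smaller than its error, and it turned positive without mouse 17, without mouse 32 and under positive control scaling. H2-DMa, a peptide-loading chain, stood at 0.37 ± 0.29 and H2-Ob, an inhibitor of that loading, at -0.59 ± 0.38, neither called. The edgeR test made 0 calls in 8 further lists. At an unadjusted p under 0.05 there were 4 of 22 JAK and STAT genes, 1 each of 11 interferon-stimulated, 17 toll-like receptor, 16 immediate early and 5 inflammasome genes, and 0 of 14 MHC class I, 5 metabolic and 4 cell cycle genes. Over all tested genes, 108 of 647 had such a p. In these 8 lists DESeq2 called Csf2ra and Cxcl10. Medians of these lists ran from -0.25 to 0.29. Csf2ra, a receptor chain for GM-CSF, missed the threshold by the least (1.18 ± 0.36, adjusted p = 0.052), with injured values of 142 to 155 and contralateral ones of 50.9 to 77.7. Nlrp3, an inflammasome sensor, stood at 0.65 ± 0.29 (adjusted p = 0.27), Myc, a growth-control transcription factor, at 0.82 ± 0.33 (adjusted p = 0.21) and Tlr3, a sensor of double-stranded RNA, at -0.64 ± 0.31 (adjusted p = 0.29). Alox5ap, needed for leukotriene synthesis, and Lif, a cytokine of the interleukin-6 family, stood at 0.97 ± 0.33 (adjusted p = 0.10) and 0.87 ± 0.32 (adjusted p = 0.13).

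Macrophage markers overlapped with the lists above, and the 8 called ones were already counted among the 26. Of 23 tested markers 8 rose (Cd68, Ctss, Fcgr1, Itgam, Mrc1, Stab1, Trem2 and Tyrobp), with a median of 1.05, and 17 were higher in 3 of 3 mice. Csf1r, the receptor on which macrophages depend for survival, counted 670, 529 and 417 in injured and 294, 229 and 362 in contralateral kidneys (0.87 ± 0.39, adjusted p = 0.27). The count of called macrophage markers was 0 without mouse 17, 0 without mouse 23 and 18 without mouse 32, while the median stayed between 0.97 and 1.2. When the libraries were scaled by the 5 defining macrophage markers instead, a setting chosen after seeing the data, 5 genes were called higher: Apoe (1.25 ± 0.33, adjusted p = 0.025), Cxcl2 (0.96 ± 0.24, adjusted p = 0.022), Ccl9 (0.89 ± 0.22, adjusted p = 0.022), Ccl2 (0.80 ± 0.22, adjusted p = 0.027) and Ctss (0.55 ± 0.21, adjusted p = 0.049). In that setting the median of all tested genes moved to -1.21 and 338 genes were called lower. Il1rn and Cd84 stood there at 1.37 ± 0.57 and 1.35 ± 0.58, without a call (adjusted p = 0.060 and 0.066). Cd68 and Fcgr1 are among the 5 markers and cannot be read from it, and Fcgr1, Pf4, Ptprc and Tgfb1 took a negative sign in it.

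Of 6 tested kidney genes edgeR called 0, with 3 at an unadjusted p under 0.05. Egf, a growth factor of the distal tubule, counted 1580, 2530 and 2160 in injured and 7180, 5860 and 6180 in contralateral kidneys. All injured values lay below all contralateral ones, as was so for 5.56% of all tested genes, but the difference of -1.64 ± 0.71 did not pass in edgeR (adjusted p = 0.25), while DESeq2 called it. Havcr1, which encodes the tubule injury marker Kim-1, counted 240, 255 and 112 against 94.0, 97.5 and 94.4 (1.02 ± 0.32, adjusted p = 0.067). Mouse 32, whose Havcr1 ratio was 0.25 against 1.35 and 1.39 in the others, also showed the smallest median response in the called genes. A link between these values was not tested. The summed kidney markers were 23123, 10573 and 5748 in injured and 15668, 11713 and 14336 in contralateral kidneys; the part of tubule RNA in the results was not tested.

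Of 6 tested monocyte markers 1 rose, Fn1, with edgeR and with DESeq2, and the median was 0.34. The summed monocyte markers were 11700, 6515 and 3696 in injured and 4917, 4809 and 4941 in contralateral kidneys, higher in mice 17 and 23 and lower in mouse 32; their part in the results was not tested. Markers of neutrophils, T cells, B cells, dendritic cells, and mast cells with basophils and eosinophils gave 0 calls with both tools. Over all tested genes edgeR called 4.02%. Among neutrophil markers S100a8 read 73 to 185 raw counts and S100a9 35 to 231 in the 6 libraries, and the 14 tested members had a median of -0.54, with 2 at an unadjusted p under 0.05. T cell markers (6 tested, median -0.76), dendritic cell markers (9, -0.62) and markers of mast cells, basophils and eosinophils (8, -0.64) held 2, 1 and 2 such genes, and the 3 NK cell markers on the panel did not reach the test. Summed raw counts of the T cell markers were 1383, 864 and 529 in injured and 728, 938 and 558 in contralateral kidneys, so that the groups overlapped. Negative medians here need not mean fewer raw counts, since those of mouse 17 were at the median 3.37 times as high in the injured kidney.

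No gene fell in edgeR, and 10% of the tested genes were lower in 3 of 3 mice. The 10 lower genes with the smallest p were Fcer1a, Lamp3, Fpr-rs3, Sfrp4, Ifit1bl1, Fpr-rs4, Cdh11, Kcnab1, Icos and Cxcl13, with log2 differences from -1.09 to -0.78 and adjusted p from 0.10 to 0.21, and 5 of them were lower in 3 of 3 mice. Their raw counts stayed between 64 and 269 in all 6 libraries. These genes were chosen for their low fitted values, and in mouse 17 their raw counts were 0.778 to 1.34 times as high in the injured kidney, where the median over all tested genes was 3.37 and 166 of 647 tested genes lay under 1.5.

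The 3 mice differed in how much the called genes rose. For mice 17, 23 and 32 in turn the median log2 ratio of the 26 genes was 1.97, 1.69 and 0.87, against medians of 0, -0.07 and 0.08 over all tested genes. Mouse 32 had the smallest ratio for 24 of the 26 genes, and mouse 17 had the largest for 19. Ccl7, at 1.84, and Trem2, at 1.14, were the exceptions in which mouse 32 was not the smallest. The ratios of the 3 mice spanned 0.34 for Ccl2, 0.22 for Ccl7 and 0.32 for Ptgs2, whereas they spanned 2.1 for Arg1 and 2.19 for Fn1. The order of the mice in the housekeeping ratio was the same (4.28, 1.89 and 0.748), and its part in the responses was not tested.

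**Figure D4:**
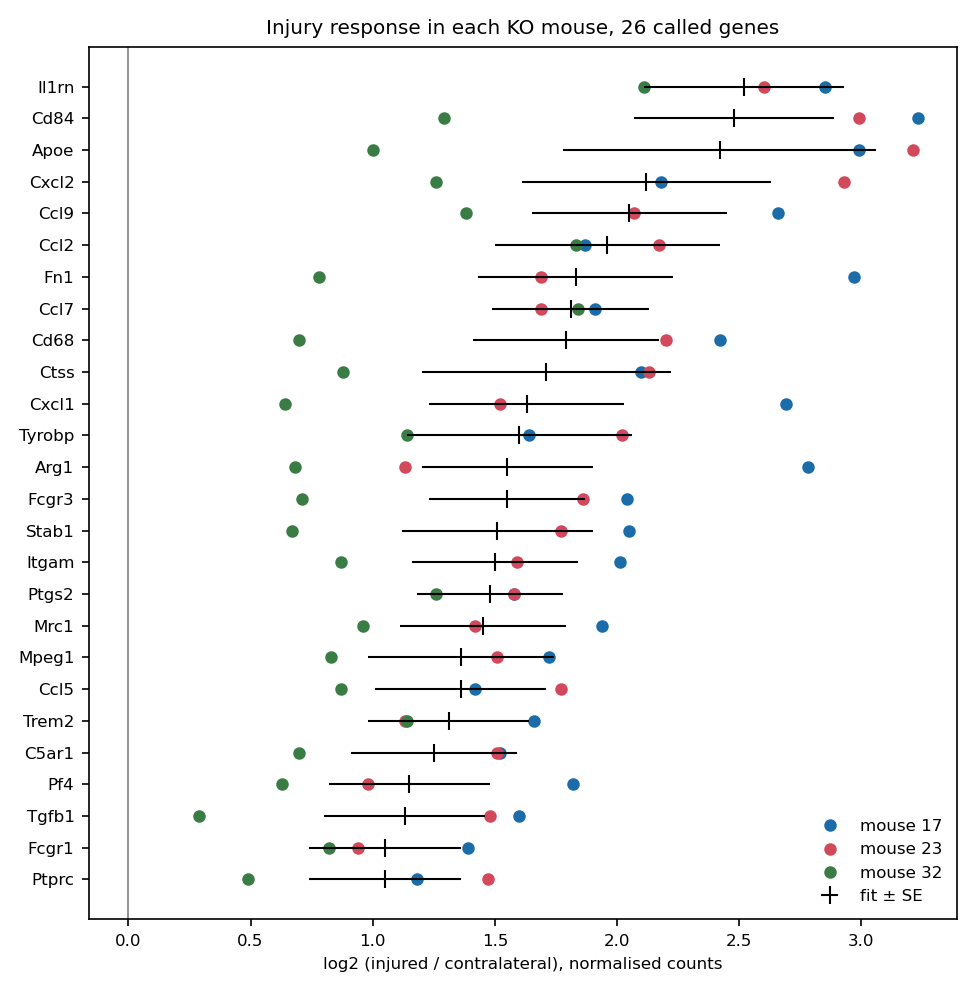
Log2 ratio of injured over contralateral normalised counts in each KO mouse for the 26 called genes, ordered by the fitted value, which is drawn as a tick with its SE. All points lie right of 0, and mouse 32 is leftmost for 24 genes.

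No difference between the KO and the WT response passed. Over all tested genes the median KO minus WT difference was -0.02. In a fit of all 12 libraries with mouse as a block, the 26 genes had a median log2 fold change of 1.56 in KO and 0.82 in WT mice. All 26 were positive in WT mice, 22 were higher in 3 of 3 of them, and 5 were called there. These genes were chosen by their KO response, which by itself favours larger KO values, so the side on which they fall is a description. The KO minus WT difference was 1.47 ± 0.53 for Cxcl2, 1.34 ± 0.63 for Apoe, 0.39 ± 0.43 for Ccl2 and 0.86 ± 0.38 for Tgfb1. Il1rn and Cd84 are left out here, since their contralateral counts lay at or near background in both genotypes. With edgeR 0 of 682 tested genes were called for the difference (0%), 75 had an unadjusted p under 0.05, and DESeq2 called 0 as well. The smallest adjusted p was 0.41, shared by the leading genes Man2b1 (1.12 ± 0.33), Lamp3 (-1.51 ± 0.47), Icos (-1.31 ± 0.43), Ido2 (-1.55 ± 0.55) and Ccl11 (-1.28 ± 0.45). Without mouse 32 there were 323 genes called for the difference, 160 higher and 163 lower in the KO response, among them 19 of the 26. Without mouse 12, 23, 26 or 36 there were 0, and without mouse 17 there was 1. The KO mice left without mouse 32 were those with housekeeping ratios of 4.28 and 1.89, and the part of these ratios was not tested.

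**Figure D5:**
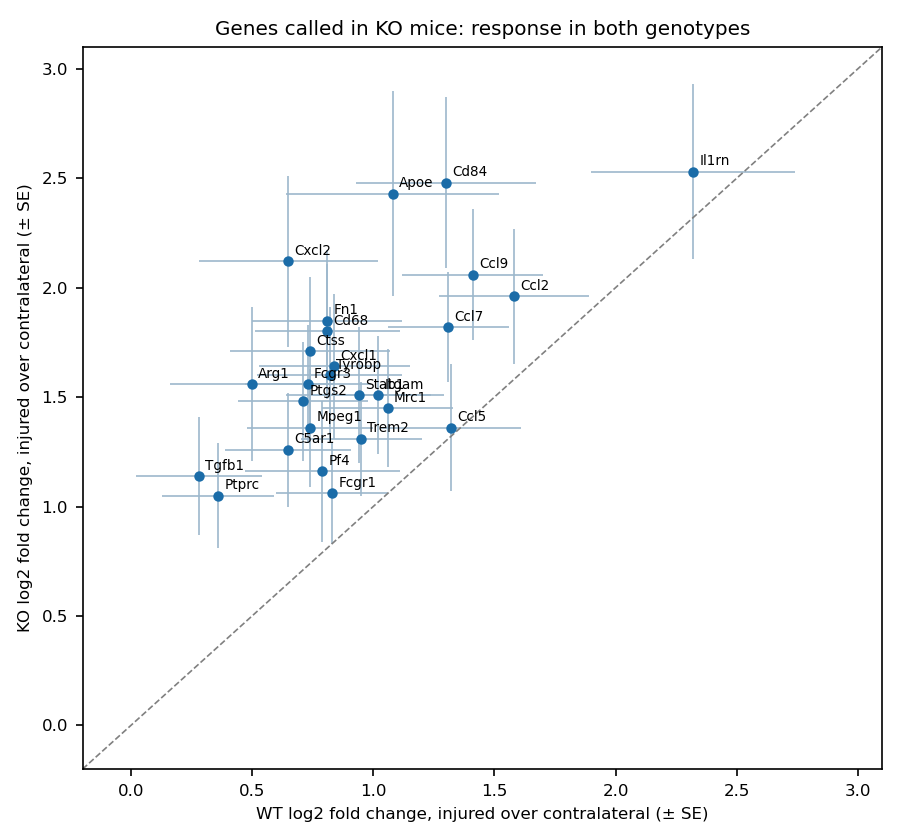
Fitted log2 fold change in KO mice (vertical) against WT mice (horizontal) for the 26 genes called in KO mice, with SE bars and the line of equal response dashed. All points lie on or above the line, Ccl5 closest to it, and the values of Il1rn and Cd84 rest on contralateral counts near background.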

How the data were processed

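The values analysed are raw barcode counts as deposited, 768 probes by 12 libraries, all whole numbers and with the control probes kept in. Per the labels, cells were selected with a biotin-labelled F4/80 antibody and RNA was run by the NanoString manufacturer's protocol; the sources used here name neither the panel nor the counting software nor a normalisation. The 20 housekeeping genes were taken by name. Of 754 gene probes, 744 matched a RefSeq symbol of GRCm38.p6 and 9 a synonym; 1 did not match. Probe sequences and positions were not used here.

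A gene was tested where its raw count reached 52.0, which is 2 SD above the mean negative control, in at least 3 of the 6 KO libraries, which kept 647 of 734. Effective sizes came from TMM over these genes, and normalised counts are relative to their geometric mean of 195471. The quasi-likelihood test of edgeR 4.0.16 in R 4.3.3 was fitted on the 6 KO libraries with mouse as a fixed block; each standard error is the size of the log2 fold change divided by the root of its F. The difference between genotypes was the interaction term over all 12 libraries (682 genes). P-values were adjusted by Benjamini-Hochberg over all tested genes. DESeq2 1.42.0 was an alternative. The code was tested on simulated data. Pairing comes from the shared animal; deviations from the group means correlated at -0.14, 0.35 and -0.50 between the kidneys of mice 17, 23 and 32. No replicate libraries agreed within sampling noise (chi-square per degree of freedom at least 6.60).

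Members and gene lists were chosen with earlier results of these data known. Genes named are Aif1, Adgre1, the 16 largest increases and 12 largest decreases among called genes, in each list the 3 tested members of lowest p, the 10 genes of lowest p for the genotype difference, and the 10 of lowest p in any direction with fewer than 10 calls; the text gives a choice of these. Ccl5, Fcgr1, Mpeg1 and Ptprc (called genes), Klk1, C1qa, S100a8 and S100a9 (defining markers), Il1a, Il1b and Cd74 were named besides.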

Additional observations from a re-analysis of the deposited data

Results flagged for a closer look

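Eif4ebp2, which encodes an inhibitor of translation initiation, was higher in the injured kidney of all 3 KO mice (log2 ratios of 0.72, 0.19 and 0.22) and lower in that of all 3 WT mice (-0.47, -0.45 and -0.76). A named gene was flagged here only where all 3 KO mice shared a sign and all 3 WT mice had the opposite one. The pattern is therefore the rule of choice and no support for a difference. For Eif4ebp2 the KO minus WT difference was 0.93 ± 0.31 and did not pass over all tested genes (edgeR adjusted p = 0.41). Il1a and Tnfrsf11a were flagged from the untested genes because all their injured values lay above all contralateral ones. Their injured raw counts also reached the threshold in most mice. Being higher in 3 of 3 mice was thus set by the choice, and their p-values are no support. Il1a, left out of the KO test by the threshold, rose by 2.78 ± 0.45 on the log2 scale when no filter was used (edgeR adjusted p = 2.9e-07). Its contralateral raw counts of 16, 8 and 9 lay under the negative controls, so the value is no exact fold. Tnfrsf11a, the receptor of the cytokine RANKL, was left out by the same threshold and gave 0.74 ± 0.40 without the filter (edgeR adjusted p = 0.34), with injured raw counts of 201, 80 and 41 against 37, 32 and 29.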

How the results depend on the processing

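The count of 26 called genes in KO mice was 2 with positive control scaling, of which 1, Il1rn, was among the 26. It was 17 when the threshold had to be reached in all 6 libraries (20 of the 26 were then tested). With all 12 libraries in the fit it was 46 (45 higher, 1 lower, holding all 26). With macrophage marker scaling, chosen after seeing the data, it was 343 (5 higher, 338 lower). Leaving out a mouse gave 0 to 222. It was 26 without the replicate block, of which 22 were among the 26 with the block (Arg1, Pf4, Ptprc and Tgfb1 lost their call), and 20 to 33 with DESeq2 size factors, DESeq2, housekeeping scaling, no filter and background subtraction. Housekeeping scaling moved the median of all tested genes from -0.05 to -0.20. The count of 0 for the difference between genotypes became 1 with positive control scaling (Il1a, adjusted over all tested genes) and ran from 0 to 323 when a mouse was left out. It was 0 without the replicate block. The cause of these shifts was not tested. Signs turned for Aif1 (0.12), H2-Ob (0.06), Tlr3 (0.02) and Cd74 (0.62) with positive control scaling, for Aif1 (0.01), Klk1 (-0.38) and Cd74 (0.15) without mouse 17, and for Cd74 (0.07) without mouse 32. Over the fits that each left out a mouse, Aif1 ran from -1.01 to 0.01, Klk1 from -0.38 to 0.95 and Cd74 from -0.34 to 0.15. With macrophage marker scaling, which by construction sets those markers near 0, they turned for Adgre1 (-0.31), Fcgr1 (-0.10), Pf4 (-0.01), Ptprc (-0.11), Tgfb1 (-0.03), Klk1 (-0.96), Havcr1 (-0.15), Cx3cr1 (-0.12), Cxcr4 (-0.47), Nlrp3 (-0.51), Alox5ap (-0.19), Lif (-0.30), C3ar1 (-0.06), Man2b1 (-0.20), Cxcl10 (-0.07), Csf1r (-0.28), Il4ra (-0.42), Sirpa (-0.05), Myc (-0.34), H2-DMa (-0.79) and Il1b (-0.82). Raw counts near the negative controls limit the folds of Il1rn, Cd84, Ccl7, Ccl5, Trem2 and Arg1.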
